A study of Mus musculus with 14 samples.

Results

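The TRIM family genes are a large group of E3 ubiquitin ligase genes named after the tripartite motif, a RING finger, 1 or 2 B-boxes and a coiled coil that open the protein. They were taken here as every protein-coding gene of the authors' deposited table whose symbol is Trim followed by a number and at most 1 letter, which gave 33 of 13130 genes. GENCODE annotates 68 genes of that form in the mouse, and the other 35 were not analysed here. The rule read the name, the gene type and the presence of a row, and no fold change or p-value, but the family was proposed with results of these data known, so the family as a whole was described and not tested.

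RNA came from the nucleus accumbens, part of the ventral striatum and of the reward circuit, of 14 C57BL/6 mice. All 14 carried TET1 loxp/loxp, alleles of a DNA demethylase gene that Cre recombinase can delete, so the controls carried them too. In 7 mice the region was injected with AAV-Cre and in 7 with AAV-GFP, an adeno-associated virus with green fluorescent protein and no Cre, and tissue was taken 4 weeks later. Every library held 1 mouse, and the labels give neither the age or sex of the mice nor the promoter that drives Cre.

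The deposited values are the authors' own comparison of the 2 groups, with a log2 fold change, a mean level and p-values per gene and no value per mouse, so values per library, their overlap between groups and the depth of each library are unknown. Tet1 itself had a log2 fold change of -0.13 ± 0.11 (SE, standard error) in the authors' deposited table, with an adjusted p of 0.921. Of 12 striatal projection neuron markers, 11 were found under the listed symbol, at mean levels of 7.08 to 10.44 log2 CPM (read counts scaled to library size). Of 8 markers of cortical excitatory neurons, cells outside the region, 7 were also present, at 1.17 to 6.58 log2 CPM. In bulk tissue a difference in the number of cells of a type and a difference in RNA per cell cannot be told apart.

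TRIM proteins attach ubiquitin to other proteins, and the domain behind the tripartite motif sets what they bind. Many members with a SPRY domain act in antiviral defence, and several of their genes are themselves induced by interferon through a promoter sequence called the interferon-stimulated response element. Other members serve neurons, with roles at the axon initial segment, in axon branching and at synapses, and a small group with a PHD finger and a bromodomain regulates transcription in the nucleus.

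Antiviral and innate immune TRIM genes had the highest estimates of the family in AAV-Cre, and Trim47 was the other member that stood with them. By the authors' fit, under limma's column names, 0 members passed an adjusted p of 0.05 over all 13130 genes, and neither did any other gene (0% of the table). At an unadjusted p under 0.05, 7 of the 33 members were listed with a positive log2 fold change, where the table as a whole lists 4.62% of genes. These were Trim47, Trim30d, Trim21, Trim30a, Trim12c, Trim56 and Trim25. With a negative log2 fold change 0 members were listed at that threshold, against 0.533% of the table. In both directions together the table lists 5.15% at that threshold. At an unadjusted p under 0.01 there were 4 members with a positive value (1.01% of the table), and under 0.1 there were 8 (8.97%). The median log2 fold change was 0.05 over the 33 genes, where all genes gave 0.02, and 21 of the 33 lay above 0, as did 59.1% of all genes.

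**Figure D1:**
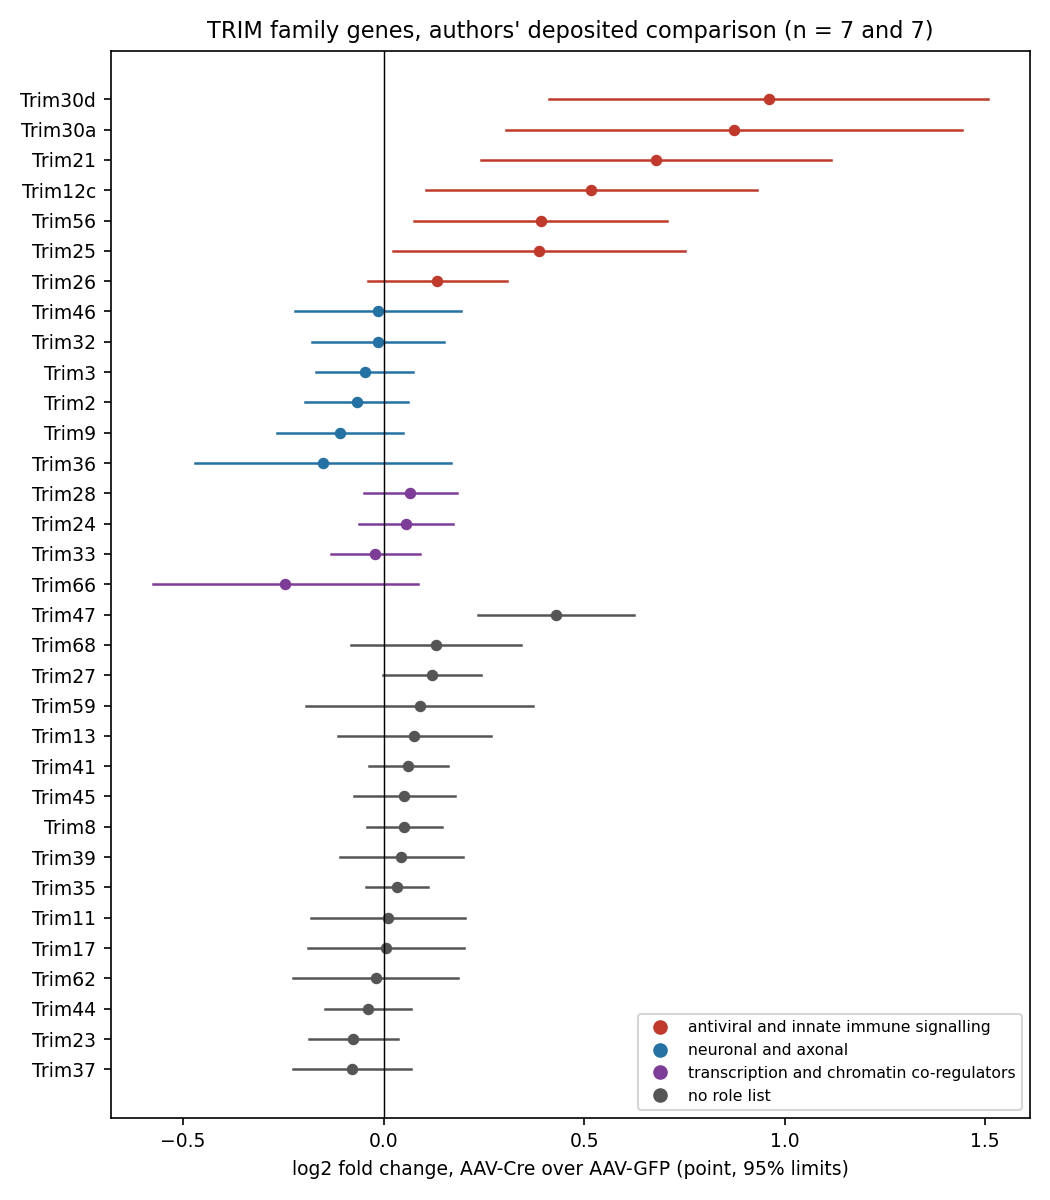
Log2 fold change of AAV-Cre over AAV-GFP (horizontal axis) for the 33 TRIM genes, as points with 95% limits derived from the authors' deposited table, coloured by role list. The limits of 7 genes lie wholly above 0, from Trim25 at 0.39 to Trim30d at 0.96, and those of the other 26 reach across 0.

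The promoters of the antiviral members are shown first, because they differ in whether they hold the response element. RefSeq promoter windows on GRCm38.p6, 250 bases before to 50 after a start, were on hand for 26 of the 33 genes. Each was searched on both strands for GAAANNGAAA, the core of the interferon-stimulated response element, and matches are in capitals in the 5 sequences that follow.
Trim30a: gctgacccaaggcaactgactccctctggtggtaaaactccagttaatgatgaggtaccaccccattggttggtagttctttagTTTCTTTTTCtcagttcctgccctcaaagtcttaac
Trim30d: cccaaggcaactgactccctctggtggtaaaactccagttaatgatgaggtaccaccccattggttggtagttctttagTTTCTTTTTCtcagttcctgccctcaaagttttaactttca
Trim12c: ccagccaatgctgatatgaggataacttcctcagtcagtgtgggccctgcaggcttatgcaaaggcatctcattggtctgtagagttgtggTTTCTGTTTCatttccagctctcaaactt
Trim26: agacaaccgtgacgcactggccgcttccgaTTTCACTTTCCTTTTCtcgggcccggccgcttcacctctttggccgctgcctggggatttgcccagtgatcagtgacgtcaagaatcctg
Trim21: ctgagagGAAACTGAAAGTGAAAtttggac
The first 3 stretches lie on the minus strand at chr7:104465194-104465313, chr7:104507850-104507969 and chr7:104353350-104353469 and end at the base before the start. The Trim26 stretch lies on the plus strand at chr17:36836956-36837075 and the Trim21 stretch on the minus strand at chr7:102565447-102565476, just inside the transcript. In Trim26 and Trim21 a pair of overlapping matches runs together.

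Of the 7 measured antiviral genes, 5 held a match, as did 1 of the 19 other TRIM genes with a window (Trim2). Among all 27025 genes with a window the share was 3.99%, and among those measured here it was 3.43%. The matches began 36 bases before the start in Trim30a, 41 before it in Trim30d, 29 before it in Trim12c and 160 before it in Trim26. In Trim21 the first began 14 bases into the transcript. Aligned end to end, the stretches of Trim30a and Trim30d had the same base in 114 of 125 columns (91.2%). Columns with a base in only 1 stretch, as at their offset ends, counted as differences. The share therefore understates how alike the paired bases of Trim30a and Trim30d are. By the same count Trim30a and Trim12c had the same base in 76 of 132 columns (57.6%).

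No match lay in the windows of Trim25, Trim56 and Trim47, whose 120 bases before the start are shown for contrast, in that order at chr11:88999283-88999402 (plus strand), chr5:137116208-137116327 and chr11:116110236-116110355 (both minus strand).
Trim25: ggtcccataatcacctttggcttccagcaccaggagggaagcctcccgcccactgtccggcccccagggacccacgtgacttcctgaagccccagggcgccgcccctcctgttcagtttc
Trim56: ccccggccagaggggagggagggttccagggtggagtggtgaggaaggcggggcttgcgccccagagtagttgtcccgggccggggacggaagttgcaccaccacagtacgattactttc
Trim47: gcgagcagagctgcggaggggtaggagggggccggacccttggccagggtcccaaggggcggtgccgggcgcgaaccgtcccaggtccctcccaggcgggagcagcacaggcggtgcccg
A second motif, TTCNNNGAA, which STAT proteins bind, was found in 0 of the 7 antiviral genes and in Trim45 and Trim46, against 9.55% of all genes with a window. Thus the response element letters were present for 4 of the 7 members listed at an unadjusted p under 0.05, and also for Trim26 and Trim2, which were not listed. Among genes measured here with a window the share was 3.43%. Trim30a and Trim30d, both among the 4, are paralogs with the same base in 91.2% of columns, so they are not separate occurrences.

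Trim30d had the highest estimate of the family, a log2 fold change of 0.96 ± 0.26 (SE) in the authors' deposited table, or 1.95 times the AAV-GFP level with 95% limits of 1.33 and 2.84. Its unadjusted p was 0.00196 and its adjusted p 0.695 in the authors' deposited table. Trim30a, which in mouse macrophages restrains NF-kB signalling, stood next to it at 0.87 ± 0.27, with p = 0.00506 and an adjusted p of 0.781 in the authors' deposited table. The genes are paralogs and neighbours on the minus strand of chromosome 7 (Trim30a from 104409025 to 104465193, Trim30d from 104470014 to 104507849, GRCm38). Of the 50-base words of the Trim30a transcripts 5.98% recur in Trim30d, so most reads of that length or longer can be told apart.

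Trim12c is a mouse relative of TRIM5, the primate factor that blocks retroviral capsids. Its log2 fold change was 0.52 ± 0.19 (SE), with p = 0.0173 and an adjusted p of 0.919, in the authors' deposited table. This value is less certain than those of the Trim30 genes, because 32.7% of its 50-base words recur in other Trim or predicted genes, 24.2% in Trim5, and reads there could have been assigned to either.

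Trim21 encodes an antibody receptor of the cytosol that sends antibody-coated virus to the proteasome. It stood at a log2 fold change of 0.68 ± 0.20 (SE), 1.60 times the AAV-GFP level, with p = 0.00462 and an adjusted p of 0.778 in the authors' deposited table. Its 95% limits were 18.4% and 117% above that level. The gene spans 102557921 to 102565486 on chromosome 7, minus strand, and shares 0.216% of its 50-base words with another gene.

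Trim25 and Trim56 had nearly equal estimates. Trim25, the ligase that modifies the RNA sensor RIG-I and also conjugates ISG15, had a log2 fold change of 0.39 ± 0.17 (SE) and p = 0.0389 in the authors' deposited table. For Trim56, a ligase of the STING and Toll-like receptor pathways, the authors' deposited table lists 0.39 ± 0.15 and p = 0.0182, and an adjusted p of 0.919 for both genes. Their lower 95% limits were close to 0, at 1.58% and 5.44% above the AAV-GFP level. Trim26, which limits the transcription factor IRF3, was the remaining measured antiviral gene and lay below these at 0.13 ± 0.08 with p = 0.121 in the authors' deposited table.

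Over the 7 measured antiviral genes the median log2 fold change was 0.52, against 0.01 over the other 26 TRIM genes and 0.02 over all genes. The role lists were drawn up with earlier results of these data known. This contrast is therefore a description of the lists and not a test of antiviral function. Another 9 annotated genes of that list (Trim5, Trim6, Trim12a, Trim14, Trim30b, Trim30c, Trim34a, Trim34b and Trim38) were not analysed here. The filter behind the table is unknown. A weakly transcribed gene may be in it because it was higher in 1 group, so the median describes the genes present and not the whole list.

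Trim47, a SPRY-domain ligase described in brain endothelial cells, had the smallest p of the family. Its log2 fold change was 0.43 ± 0.09 (SE) in the authors' deposited table, 1.35 times the AAV-GFP level, with 95% limits of 1.18 and 1.54. The unadjusted p of 0.000275 ranked 2 of 13130 in the authors' deposited table, while its log2 fold change ranked 309, and the adjusted p was 0.695. The small p went with a small error: the standard error of Trim47 was 0.641 times the median of genes at the same mean level. Trim47 spans 116105752 to 116127210 on chromosome 11, minus strand, and 8.23% of its exonic bases overlap exons of Trim65 on the same strand. The RefSeq start used for its promoter window lies inside that span. The bases upstream of 116127210 were therefore not searched for the response element.

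The antiviral genes had wide errors for their level. Standard errors of Trim30a, Trim25, Trim56 and Trim30d were 2.42, 2.08, 1.88 and 1.82 times the median of genes within 0.25 log2 CPM of them, and those of Trim12c and Trim21 were 1.48 and 1.45 times. For Trim26 the ratio was 1.12. Over all 33 members the median ratio was 0.929, with 16 of the 33 above 1. Since values per mouse were not on hand, whether a few mice of a group carried these values was not tested.

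**Figure D2:**
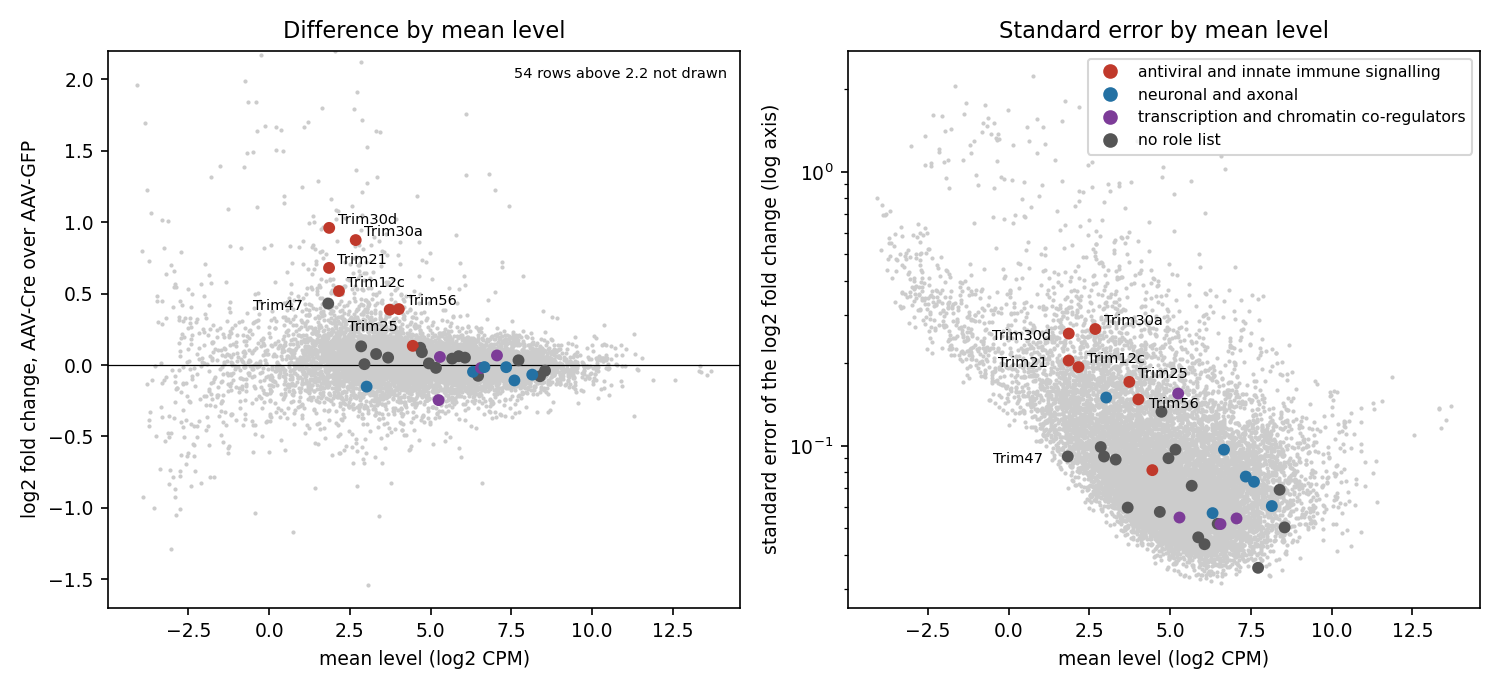
Log2 fold change (left) and its standard error on a log axis (right) against mean level in log2 CPM, for all genes of the authors' deposited table in grey and the TRIM genes in colour, with names for the 7 members listed at an unadjusted p under 0.05. These 7 lie between 1.83 and 4.02 log2 CPM, and 6 of them lie high among genes of their level in the right panel, where Trim47 lies low; 54 genes above a log2 fold change of 2.2 are not drawn on the left.

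The 7 listed members were also among the weaker transcripts of the family. Per kilobase of exon, Trim44 (66.1 CPM per kb), Trim32 (50.2), Trim37 (46.5), Trim35 (45.7) and Trim28 (32.0) had the highest mean levels in terms of the authors' deposited table. At the other end stood Trim30d (0.966), Trim21 (0.975), Trim12c (1.197), Trim47 (1.30) and Trim30a (1.56), with Trim56 at 1.74 and Trim25 at 2.31 CPM per kb by the same table. All 7 thus fell among the 11 lowest of the 33. The table gives no error of a level, so neighbours in this order cannot be told apart.

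The 6 measured neuronal TRIM genes had small estimates, all below 0, and none was listed at an unadjusted p under 0.05. Of all genes 59.1% lay above 0 and 5.15% were listed at that p. With so low a share, 0 of 6 listed is no result about these genes. Trim9, a brain-enriched ligase that binds the netrin receptor DCC and controls axon branching, had a log2 fold change of -0.11 ± 0.07 (SE; p = 0.165) in the authors' deposited table. Trim36, a microtubule-associated ligase, stood at -0.15 ± 0.15 (p = 0.329) in the authors' deposited table, with the widest limits of the 6, from -0.47 to 0.17. For Trim2, which ubiquitinates the neurofilament light chain, the authors' deposited table lists -0.07 ± 0.06.

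The other 3 neuronal members were close to 0. Trim3, a synaptic ligase, had a log2 fold change of -0.05 ± 0.06 (SE) in the authors' deposited table. The authors' deposited table lists Trim46, which bundles microtubules at the axon initial segment, at -0.01 ± 0.10 and Trim32, a regulator of neural progenitors, at -0.02 ± 0.08. The median over the 6 was -0.06. Apart from Trim36, the upper 95% limits lay between 0.05 and 0.19. Trim67, the closest relative of Trim9, was not analysed here.

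The nuclear co-regulators were all measured, and none was listed at an unadjusted p under 0.05, where 5.15% of all genes were. Trim28, the corepressor of KRAB zinc finger proteins that silences retrotransposons, had a log2 fold change of 0.07 ± 0.05 (SE) in the authors' deposited table, with limits of -3.33% and 13.5%. Trim24, a cofactor of nuclear receptors, stood at 0.06 ± 0.05 and Trim33, a regulator of Smad4, at -0.02 ± 0.05 in the authors' deposited table. Trim66 had the lowest estimate of the family, -0.25 ± 0.16 with p = 0.134 in the authors' deposited table. Its standard error was 2.41 times that of genes at its level, and its limits ran from -32.9% to 6.06%.

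Outside these role lists, 16 members were measured, and Trim47 alone among them was listed at an unadjusted p under 0.05. Trim27, a SPRY ligase with nuclear and endosomal roles, lay just outside that threshold at p = 0.0530, with a log2 fold change of 0.12 ± 0.06 (SE) in the authors' deposited table, while Trim25 lay just inside it. Trim68 had a larger but less certain value of 0.13 ± 0.10 (p = 0.207) in the authors' deposited table. Trim37, a ligase of centrosomes and peroxisomes, and Trim23, which carries an ARF domain, had the lowest estimates of the 16, both -0.08, with p = 0.273 and 0.165 in the authors' deposited table. The 6 unlisted members with the most positive and most negative values, Trim26, Trim68 and Trim27 and Trim66, Trim36 and Trim9, had adjusted p of 0.919 to 0.930 and mean levels of 2.85 to 7.60 log2 CPM in the authors' deposited table. The membrane-anchored Trim59 and Trim13 stood at 0.09 ± 0.13 and 0.08 ± 0.09, again from the authors' deposited table. For Trim13, 14.2% of the 50-base words recur in the predicted gene Gm9359, and for Trim59 5.62% recur in other genes. Reads there could have been assigned to either gene.

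The remaining 9 of the 16 (Trim8, Trim11, Trim17, Trim35, Trim39, Trim41, Trim44, Trim45 and Trim62) ranged from -0.04 to 0.06 and included the best-measured genes of the family. Trim35 had the smallest standard error of the family, with a log2 fold change of 0.03 ± 0.04 in the authors' deposited table and limits of -2.96% and 7.89%. Trim44, a member without a RING finger, stood at -0.04 ± 0.05 and Trim8 at 0.05 ± 0.04 in the authors' deposited table. For 13 of the 33 members the 95% limits stayed within 0.2 of 0 on the log2 scale, that is between -12.9% and 14.9%. Trim17 shares 19.0% of its exonic bases with a histone gene on the same strand, so its value of 0.01 ± 0.09 in the authors' deposited table may include reads of that gene.

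Grouped by domain, the SPRY class held 6 of the 7 listed members, Trim56 being the other. Of its 15 measured genes 14 had a positive log2 fold change, with a median of 0.13, where 59.1% of all genes lay above 0. The 9 of them outside the antiviral list had a median of 0.04. The classes with a COS box, an FN3 repeat and a SPRY domain (Trim9, Trim36, Trim46) and with NHL repeats (Trim2, Trim3, Trim32) had medians of -0.11 and -0.05, and 0 of their 6 genes lay above 0. Trim42, Trim54, Trim55 and Trim63, which have a COS box without a SPRY domain, were not analysed here, and nor was the muscle gene Trim72.

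On chromosome 7, 6 of the 33 members lie between 102557921 and 105633571 (GRCm38), together with 7 other measured genes. The 4 of them listed at an unadjusted p under 0.05, Trim21, Trim12c, Trim30a and Trim30d, had log2 fold changes of 0.52 to 0.96 in the authors' deposited table. The authors' deposited table lists 0.13 for Trim68, beside Trim21, and -0.05 for Trim3, at the far end. The 7 other genes of the stretch, among them the beta-globin genes Hbb-bt and Hbb-bs, ranged from -0.09 to 0.12, with 0 listed at an unadjusted p under 0.05. The limits of the beta-globin genes, which lie between Trim68 and Trim12c, were wide (-0.98 to 0.88 for Hbb-bt), and those of the 5 genes near Trim3 lay between -0.53 and 0.36.

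**Figure D3:**
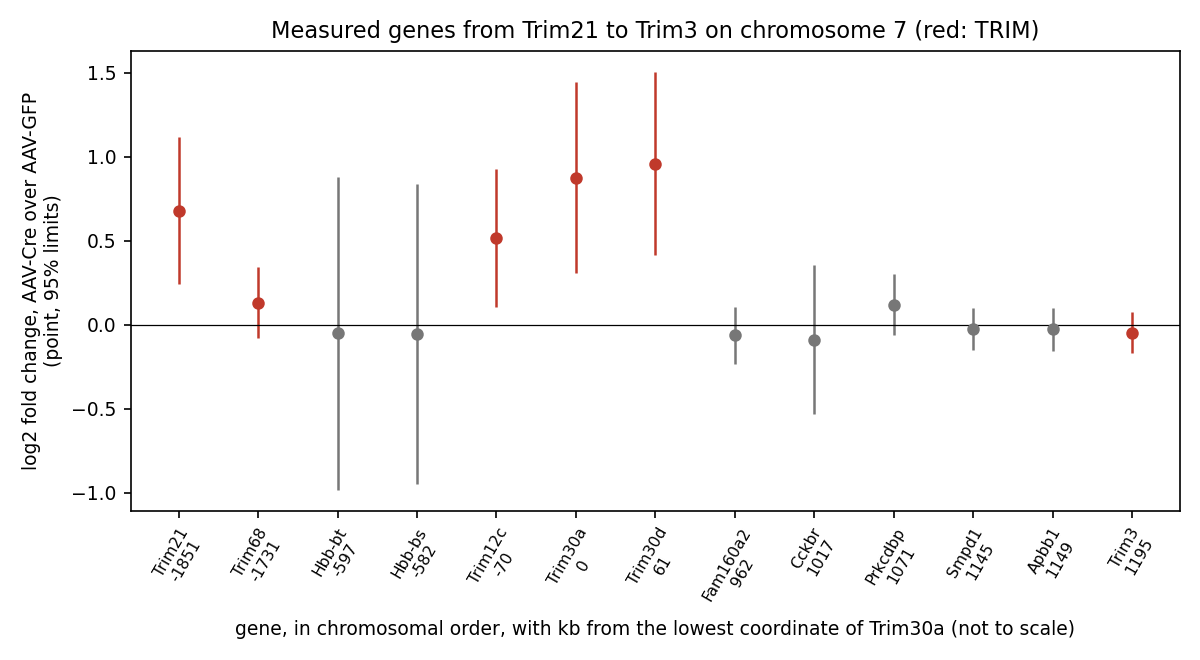
Log2 fold change of AAV-Cre over AAV-GFP with 95% limits for the 13 measured genes from Trim21 to Trim3, in chromosomal order, with each gene's distance in kb from the lowest coordinate of Trim30a under its name. TRIM genes are red; Trim21, Trim12c, Trim30a and Trim30d stand between 0.52 and 0.96, and the limits of all grey genes reach across 0.

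Several genes that act with the antiviral members also had positive values. Over the whole table, 4.62% of genes were listed at an unadjusted p under 0.05 with a positive value. Of the ISG15 conjugation genes, which attach the ubiquitin-like protein ISG15 with Trim25 among the ligases, the 5 measured lay above 0 (median log2 fold change 0.70) and 4 were listed at an unadjusted p under 0.05. Usp18, which removes ISG15, stood at 0.997 ± 0.41 (SE), Uba7, its activating enzyme, at 0.75 ± 0.25, Isg15 itself at 0.70 ± 0.27 and the ligase gene Herc6 at 0.49 ± 0.18 in the authors' deposited table. In the RNA and DNA sensing list 2 of 8 were listed, the RIG-I gene Ddx58 (0.45 ± 0.17) and the STING gene Tmem173 (0.35 ± 0.15), both from the authors' deposited table. Mavs, Tbk1, Traf3, Traf6, Ikbkg and Irf3, which carry the signal onward, were not listed and ranged from -0.05 to 0.16 there.

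In the interferon receptor and JAK-STAT list, 2 of the 10 genes reported here were listed at an unadjusted p under 0.05. Both values were positive, where the table as a whole lists 4.62% of genes so. The transcription factor gene Irf1 led in the authors' deposited table, at a log2 fold change of 0.84 ± 0.23 (SE) with an adjusted p of 0.695, and the receptor gene Ifngr1 was the other (0.19 ± 0.09). Irf9, which was not listed at that p, was at 0.29 ± 0.15 there. Stat2 stood at 0.09 ± 0.09 there, and the median of these 10 genes was 0.10.

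For the E2 enzymes that hand ubiquitin to TRIM ligases the median log2 fold change was 0.003 over 11 genes, with 0 listed at an unadjusted p under 0.05 and a range of -0.06 to 0.08. Partners of Trim28 in KRAB repression had a median of 0.04 over 11 genes, again with 0 listed. Of 14 partners of neuronal TRIM proteins, 9 lay below 0 (median -0.11), and the actin regulator gene Vasp was the 1 listed, at 0.27 ± 0.10 in the authors' deposited table. In both directions together the table lists 5.15% of all genes, so 1 of 14 is near that share. Superfamily genes under other symbols, among them Pml (0.14 ± 0.09), Mid1 (0.11 ± 0.56) and Mid2 (0.02 ± 0.07) in the authors' deposited table, had 0 of 6 listed.

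**Figure D4:**
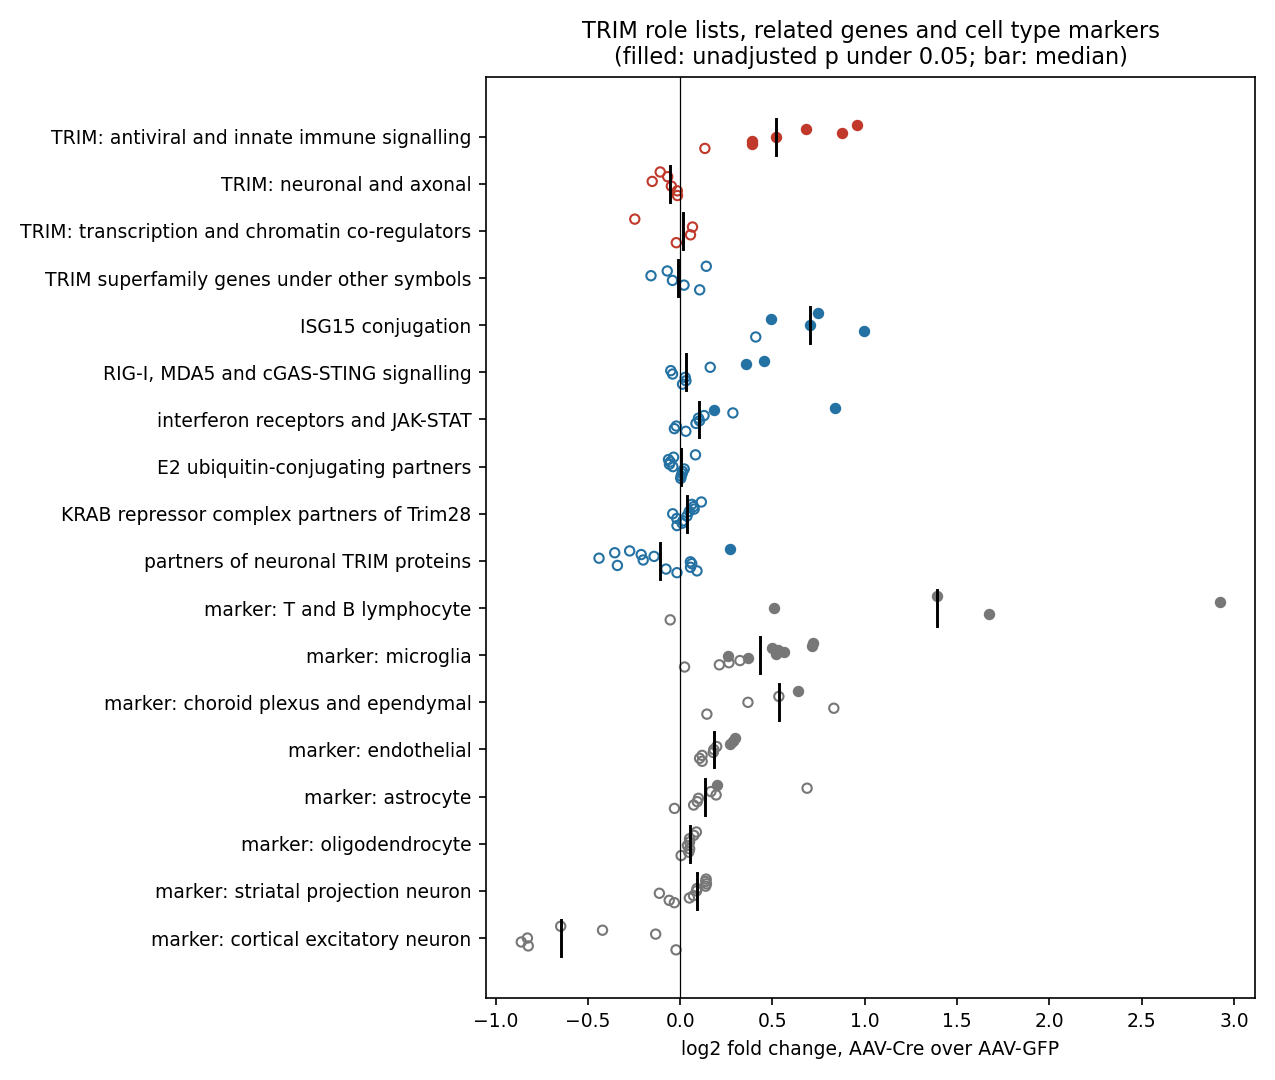
Log2 fold change of AAV-Cre over AAV-GFP for each measured gene of the TRIM role lists (red), related lists (blue) and cell type markers (grey), with a bar at each list's median and filled points for an unadjusted p under 0.05. The antiviral TRIM genes (median 0.52), ISG15 conjugation (0.70) and the markers of lymphocytes (1.39), choroid plexus and ependymal cells (0.53) and microglia (0.43) lie to the right, neuronal TRIM genes (-0.06) near 0 and cortical excitatory neuron markers (-0.65) to the left.

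Markers of several other cell types also had positive values in AAV-Cre, beside the antiviral TRIM genes. Of all genes, 4.62% were listed at an unadjusted p under 0.05 with a positive value. A short list with only 1 gene listed therefore gives no result about that list. All 12 microglia markers had positive log2 fold changes (median 0.43) and 8 were listed at an unadjusted p under 0.05, led by Ctss (0.72 ± 0.25, SE) and C1qa (0.72 ± 0.25) in the authors' deposited table. P2ry12, a defining gene of resident microglia, stood at 0.02 ± 0.12 there. Of 12 lymphocyte markers 5 were in the table and 4 were listed at that p, with a median over the 5 of 1.39. By the authors' deposited table, the immunoglobulin light chain gene Igkc was at a log2 fold change of 2.92 ± 1.03 (SE), Cd79a at 1.67 ± 0.67, Trac at 1.39 ± 0.40 and Lck at 0.51 ± 0.21. Cd4, which was not listed at that p, was at -0.05 ± 0.17 there. Its mean level was 5.82 log2 CPM, and the part of lymphocytes in its RNA was not tested. The lymphocyte median is the value of Trac, whose mean level was only -1.52 log2 CPM, and Cd79a was at -0.14 log2 CPM. Standard errors of the 5 genes were 1.48 to 16.0 times the median of genes at their level. As with the antiviral list, the lymphocyte median describes the genes present and not the whole list. The 9 endothelial markers had a median of 0.18 with 3 listed, and the 8 oligodendrocyte markers 0.05 with 0 listed. Of 7 ependymal and choroid plexus markers 5 had values here, with a median of 0.53 and 1 listed. Among them Kl was at 0.14 ± 0.25 (SE), and Dynlrb2 had a mean level of only -1.21 log2 CPM. This median too describes the genes present and not the whole list. Astrocyte markers had a median of 0.13 over 8 genes with 1 listed. The highest astrocyte value was that of Gfap, which was not listed, at 0.69 ± 0.34 (SE), and 1 of the 8 lay below 0.

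Neuronal markers beside the neuronal TRIM genes pointed both ways: the median log2 fold change was 0.09 over 11 striatal projection neuron markers and -0.65 over 7 cortical excitatory neuron markers, with 0 listed in either. The ratio of a cortical marker's standard error to that of genes at its level had a median of 7.18 and ran from 1.53 to 17.9. The part of any of these cell types in the TRIM values was not tested.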

How the data were processed

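Libraries were made from poly(A) RNA with an Illumina TruSeq kit, 1 per mouse, per the labels' protocols. The submitters' processing notes name TopHat2 2.0.9, Bowtie2 2.1.0, GRCm38 and mm10. How reads were counted, with or without strand, and against which annotation is not given in the sources used here, nor are the low-level filter and the model. The authors' table holds, per the file headers and under limma's column names, log2 values (a fold change and a mean level), score columns (t and B) and p-values before and after adjustment. The latter match Benjamini-Hochberg values over the 13130 rows to within 1e-06. Linear mean levels sum to 991364, close to what log2 CPM would give. The direction, AAV-Cre over AAV-GFP, is taken from the table's name. Depth is unknown, so no interval from counts is given.

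A standard error (SE) is the ratio of log2 fold change to t. The 95% limits use the 15.1 degrees of freedom that link t and p. Both steps were run on simulated data from ordinary t-tests on independent values. That run does not test the limits under the authors' own fit, whose model is not given. All 33 members matched GENCODE M21 (GRCm38) by stable ID, which gave positions and exonic lengths. Promoters came from RefSeq's table on GRCm38.p6; Trim3, Trim8, Trim11, Trim17, Trim33, Trim35 and Trim36 had no entry. Transcripts were compared with other Trim and Gm genes by shared words of 50 bases.

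The members, role lists and related lists were chosen with earlier results of these data known. Values in full were given for members with an unadjusted p under 0.05 and the next 3 in each direction, and every role list member received its log2 fold change. A gene of the related lists is not reported here and was left out of its list. No set test was run. Alternatives were other thresholds, a mean of at least 1 CPM, other membership and the mean in place of the median. Software was scipy 1.17.1, pandas 2.3.3, numpy 2.4.6 and matplotlib 3.10.9 under Python 3.11.15.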

Additional observations from a re-analysis of the deposited data

How the results depend on the processing

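No paired analysis was possible because the deposited table has no value per mouse, and for the same reason leaving out each replicate could not be run. The count of 7 members with a positive value was 4 at an unadjusted p under 0.01 (1.01% of the table) and 8 under 0.1 (8.97%). It was also 4 without the Trim12 and Trim30 paralog groups, a choice made after seeing the data that removes 3 of the 7 by construction. The count with a negative value was 0 under each of these, and the count past the adjusted p was 0 at 0.1 and when adjusted over genes of at least 1 CPM, where the smallest was 0.782. Of 25 alternatives for medians, 22 moved a median by less than 0.08, the median standard error of the members. That count says little. The lowest member stood at 1.83 log2 CPM, so the setting of at least 1 CPM removed no member and could move no median. In the class of 2 membrane-anchored genes the mean equals the median. The bound also exceeds the family median of 0.05, so a median within it can change sign. The antiviral median was 0.39 without the paralog groups. With the mean in place of the median the SPRY class stood at 0.29 and the class without a named C-terminal domain (Trim8, Trim44, Trim56) at 0.13, and the co-regulators turned from 0.02 to -0.04. Without the antiviral list, also chosen after seeing the data, the family median was 0.01.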
